A study of Capra hircus and Bos taurus with 7 samples.

Results

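Levels of bta-miR-191, bta-miR-425-5p and bta-miR-186 were examined in extracellular vesicles (EVs, membrane-bound particles released by cells) from reconstituted milk powders. These 3 rows, of 364 rows of mature microRNAs (miRNAs) in all, were taken by name, as those whose name without species prefix and arm is miR-191, miR-425 or miR-186 and not by a threshold on a measured value, though with earlier results of these data known. The arm is named for miR-425 only, and the 364 rows held none for the 3p arm of miR-425. A row named miR-191b was not counted as a member and is given as a check of split reads.

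Small RNA was sequenced from 7 libraries of vesicles separated by size exclusion chromatography. A group of 3 libraries came from whole goat milk powder and a group of 3 from skimmed goat milk powder, both goat (Capra hircus), each lettered A to C, and 1 library came from a commercial bovine (Bos taurus) milk powder. The labels give no breed, lot or lactation stage and do not say whether both goat powders came from the same milk. Nothing in them says that the letters stand for separate powders or isolations, so the p-values reflect the spread between libraries alone and that spread may be technical. Vesicles from several cell types are mixed in milk, and fewer vesicles of a type cannot be told apart from fewer copies per vesicle.

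MiRNAs are short RNAs that guide Argonaute proteins to partly complementary mRNAs and lower their output. In mammals miR-191 and miR-425 are cut from neighbouring hairpins of the DALRD3 locus and made from a common primary transcript, and miR-186 lies in an intron of ZRANB2, a gene for a splicing factor. The miR-191 and miR-425 cluster has been studied in mammary tumour cells, where it responds to oestrogen; miR-425 has been reported to act on the mRNA of atrial natriuretic peptide, and miR-186 on that of the transcription factor FOXO1. All of them are found in many tissues, and miR-191 in particular has often served as a reference control in quantitative PCR. In a RefSeq gene table of goat (assembly ARS1.2), MIR425 lay within DALRD3, MIR191 lay next to DALRD3 with MIR425 as its nearest miRNA gene, and MIR186 lay within ZRANB2. Coordinates are not given, because no source used here names the genome build.

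Library totals over all miRNAs ranged from 6561887 to 11963849 estimated reads in goat and stood at 5675489 in bovine. Rows of milk and mammary epithelium (miR-148a, miR-200a, miR-200b, miR-200c, miR-141, miR-30a-5p and miR-375) took 19.3% to 24.9% of goat reads and 22.5% of bovine reads, and each of the 7 was present in every goat library. Their sum hides rows that went opposite ways. As a share of reads the bovine library lay above the goat range for 3 (miR-30a-5p, miR-200c and, only just, miR-200b). It lay below the range for 3 (miR-148a, miR-200a and miR-375) and inside it for 1 (miR-141). The summed share of 6 leukocyte rows was 0.278% to 0.291% in whole, 0.324% to 0.342% in skimmed and 0.0106% in bovine libraries. Of the erythroid names 1 of 3, miR-486, was matched, at 15.6 to 72.8 CPM (reads scaled to a common library total) in goat and 0.176 CPM in bovine.

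The most abundant of the members was miR-191. In CPM of all miRNA reads of a library, it stood at 15428, 15054 and 12973 in whole libraries A, B and C, at 14014, 12742 and 13535 in skimmed libraries A, B and C, and at 17080 in the bovine library. Whole A and B lay above all skimmed libraries and whole C lay among them, so the goat powders overlapped. Group means, with SD over 3 libraries, were 14485 ± 1323 CPM for whole powder and 13431 ± 642 CPM for skimmed powder. The miRNA held 1.27% to 1.54% of goat reads and 1.71% of bovine reads, and ranked 18th or 19th among the 364 rows in each goat library and 16th in bovine.

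Next in level stood miR-186, the miRNA of the ZRANB2 intron. Its level was 7032, 6221 and 6656 CPM in whole A, B and C, 5772, 6194 and 6186 CPM in skimmed A, B and C, and 7254 CPM in bovine. All 3 whole libraries lay above all 3 skimmed libraries on this scale, with whole B only just above skimmed B and C. The group means were 6636 ± 406 CPM and 6051 ± 241 CPM (SD, n = 3 each), and its rank was 29th or 30th in goat and 26th in bovine.

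Far below its cluster partner came miR-425-5p. It stood at 377, 384 and 319 CPM in whole A, B and C, at 341, 248 and 348 CPM in skimmed A, B and C, and at 1169 CPM in bovine. Skimmed B was the lowest of the goat libraries and the bovine library stood apart above all of them. Whole powder averaged 360 ± 35.7 CPM and skimmed powder 312 ± 55.5 CPM (SD, n = 3 each), and the rank was 84th to 93rd in goat and 56th in bovine. The order miR-191, miR-186, miR-425-5p held in each of the 7 libraries. Levels of different miRNAs are shares of reads, and how well each miRNA is captured in a library was not measured.

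**Figure D1:**
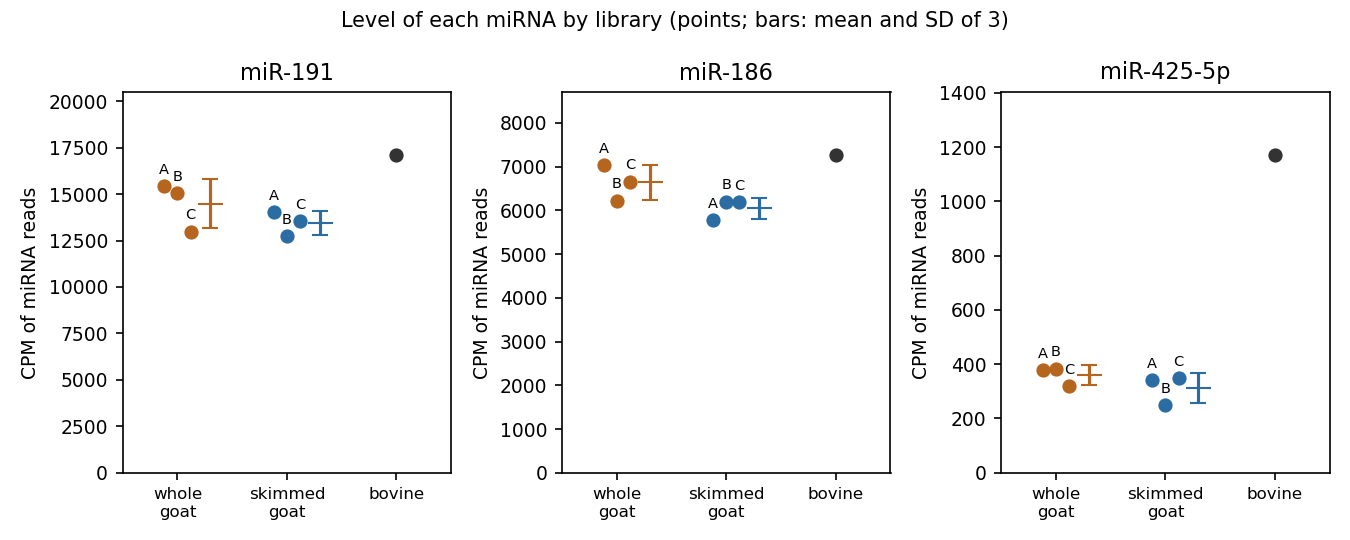
CPM of miR-191, miR-186 and miR-425-5p (vertical axes from 0) in each library by group; points are libraries, letters name goat libraries, and bars give the mean and SD of 3. The bovine point lies above all goat points in each panel, slightly for miR-186 (7254 against at most 7032 CPM) and widely for miR-425-5p (1169 against at most 384 CPM).

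Rows next to a member by mean goat level mostly overlapped it. Next above miR-191 was miR-23a, at 11994 to 16018 CPM over the goat libraries, which overlapped the 12742 to 15428 CPM of miR-191. Next below was miR-423-3p, at 8228 to 11374 CPM, which did not overlap it. The neighbours of miR-186 (miR-10174-3p above and miR-200a below) and those of miR-425-5p (miR-340 above and miR-374b below) overlapped them over the goat libraries.

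Since these miRNAs are known as reference controls, their spread over the 6 goat libraries was described first. The coefficient of variation (CV, SD divided by mean) was 7.84% for miR-191, 6.91% for miR-186 and 14.6% for miR-425-5p. The highest goat library exceeded the lowest by 1.21-fold for miR-191, 1.22-fold for miR-186 and 1.55-fold for miR-425-5p. Within powders the CV was 9.13% in whole and 4.78% in skimmed for miR-191, 6.12% and 3.99% for miR-186, and 9.91% and 17.8% for miR-425-5p. For miR-425-5p a single library set much of this value: without skimmed B its CV was 7.56%. Counting error alone was far smaller, at 0.254% to 0.314% of the value in goat for miR-191, 0.354% to 0.466% for miR-186 and 1.60% to 2.20% for miR-425-5p; amplified reads carry no molecular identifiers, so such errors and the intervals given here cover counting error only.

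Set among the 64 miRNAs that averaged 1000 CPM or more in goat, miR-186 had the 4th smallest CV in CPM and miR-191 the 9th. The CV of these 64 ran from 4.19% (miR-200b) to 50.8% with a median of 16.7%, and 12 of them lay under 10%. At its lower level miR-425-5p had the 30th smallest CV of 126 miRNAs with at least 100 CPM, whose median was 24.4%. Among the 27 rows within 2-fold of its own mean it had the 2nd smallest, where the median was 36.9%.

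**Figure D2:**
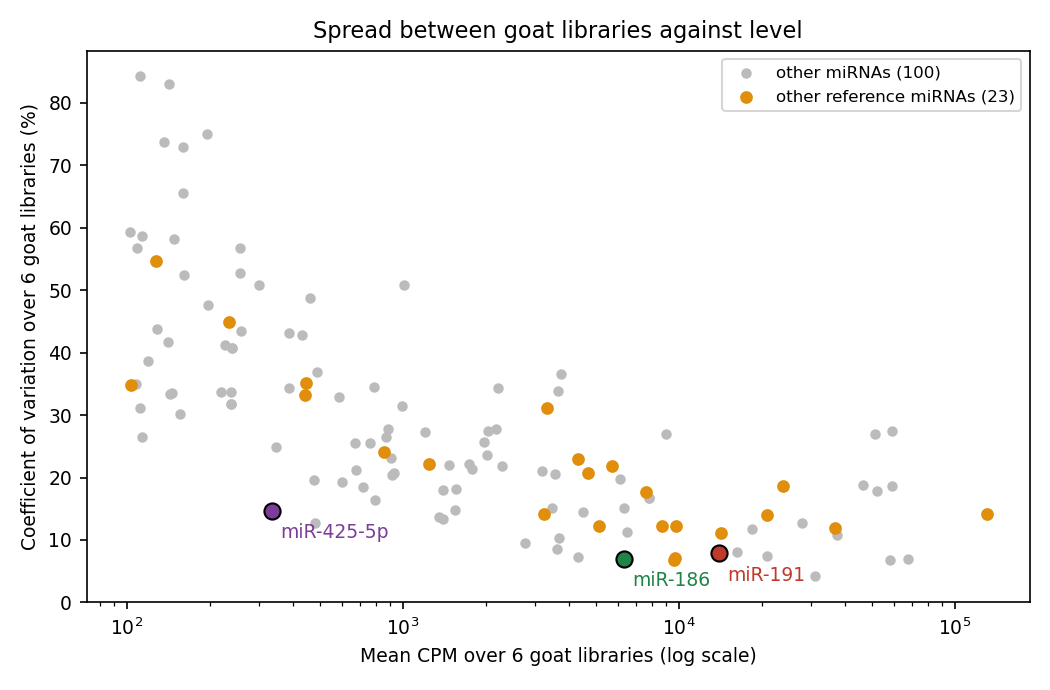
CV over the 6 goat libraries (vertical axis, percent) against mean CPM (horizontal axis, log scale) for the 126 miRNAs averaging 100 CPM or more; orange points are 23 other miRNAs often used as reference controls. Spread is larger at low levels, and miR-186 (6.91%) and miR-191 (7.84%) lie along the lower edge of the cloud.

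Other miRNAs often used as reference controls were then set beside the members. This list had 27 rows besides miR-425-5p, of which 17 averaged 1000 CPM or more in goat. Their CV ran from 6.77% to 31.2% with a median of 14.1%. The smallest were those of miR-16b (6.77%) and miR-16a (7.08%), paralogues so alike that reads may have been divided between them, and of miR-23a (11.1%). The largest were those of miR-25 (31.2%), miR-320a (23.0%) and miR-484 (22.1%). The members miR-186 and miR-191 would stand 2nd and 4th in this list, with the miR-16 rows beside them.

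The comparison of skimmed with whole goat powder asked whether vesicle miRNAs differ when milk is sold with or without its fat. Of the 3 members 0 were called at an adjusted p under 0.05 (edgeR, quasi-likelihood, Benjamini-Hochberg over 209 miRNAs that passed the filter on low counts), where 1 miRNA or 0.478% was called. At an unadjusted p under 0.05 edgeR counted 0 of 3 members and 10.5% of all tested miRNAs. DESeq2's Wald test called 0 of 3 members and 5.74% of all, and limma-voom 0 of 3 and 0.478%. All 3 members passed the filter on low counts, and 3 rows against a background this low say little about the members as a group.

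For miR-191 the log2 fold change, skimmed over whole, was -0.014 ± 0.11 (SE), with an edgeR adjusted p of 0.97. Its 95% interval was -0.27 to 0.25, or from 0.827-fold to 1.19-fold. For miR-186 it was -0.044 ± 0.10 (SE), with an edgeR adjusted p of 0.96 and an interval from 0.823-fold to 1.14-fold. Both intervals thus leave differences of up to 1.2-fold or so undetected, and neither shows that the powders are alike. For miR-425-5p it was -0.11 ± 0.35 (SE), with an edgeR adjusted p of 0.96 and an interval from 0.534-fold to 1.61-fold, so that a difference of this size was not detectable with these libraries. Of 209 tested miRNAs, miR-191 had the 5th smallest log2 fold change in size, miR-186 the 15th and miR-425-5p the 36th. These places were taken in this fit alone, and each SE exceeded the size of the log2 fold change it belongs to.

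The separation of miR-186 between the powders in CPM depended on how libraries were scaled. In CPM 42 of the 209 tested miRNAs, 20.1%, had powders that did not overlap, and miR-186 was the 1 member among them. With TMM scaling, which sets libraries by the bulk of their miRNAs instead of their totals, whole A, B and C stood at 6907, 5829 and 6571 CPM and skimmed A, B and C at 6219, 6310 and 6202 CPM. The summed leukocyte rows took a larger share in every skimmed than in every whole library, as given above. Of the 6 rows miR-223 was higher in all skimmed libraries (1174 ± 32.2 CPM in whole and 1610 ± 110 CPM in skimmed, SD, n = 3 each), miR-150 was lower in all of them, and the other 4 overlapped. In edgeR 0 of the 5 that were tested were called, and the part of these rows in the values of the members was not tested. With TMM scaling the powders overlapped for miR-186, as for the other members, while the share of all tested miRNAs without overlap was again 20.1%.

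Beside these values, 1 of the 26 tested reference miRNAs other than members was called in edgeR, miR-25, at a log2 fold change of 0.87 ± 0.13 (SE, adjusted p = 0.035), and 0 were called lower. Its call is lost in edgeR when any 1 of whole A, B or C or skimmed B or C is left out. It is also lost there with DESeq2 size factors, library totals or upper-quartile scaling in place of TMM, with let-7a-5p left out and with the letters as a replicate block. Values were above 0 for 17 and below 0 for 9, with a median of 0.14. Over all 209 miRNAs 113 were above and 96 below 0, with a median of 0.034. Of miRNAs in or near introns of protein-coding genes in mammals, 46 rows were matched and 42 tested, members included. In edgeR 1 of these (again miR-25) was called higher and 0 lower, and their median was 0.049.

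**Figure D3:**
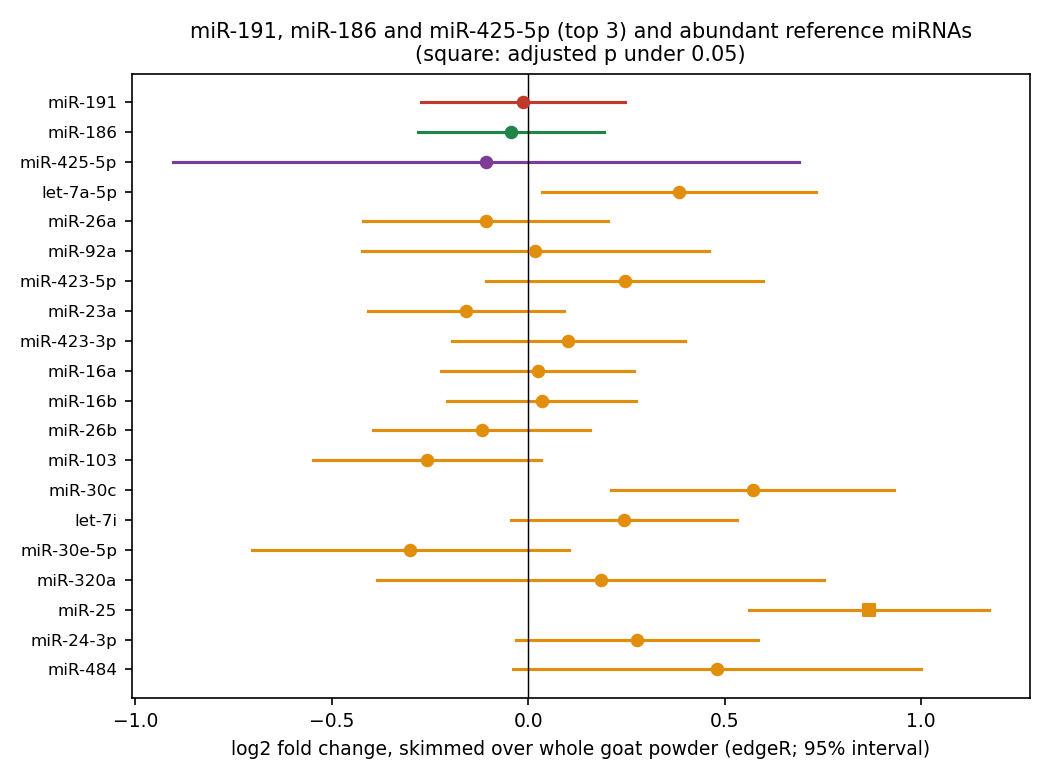
Log2 fold change, skimmed over whole goat powder, with 95% intervals from edgeR (horizontal axis) for the 3 members and the 17 other reference miRNAs averaging 1000 CPM or more. Intervals of the members span 0 and that of miR-425-5p is the widest of the 3; the square marks miR-25, the 1 miRNA called.

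Ratios between members within a library do not depend on any scaling between libraries. The ratio of miR-191 to miR-186 was 2.19, 2.42 and 1.95 in whole A, B and C, 2.43, 2.06 and 2.19 in skimmed A, B and C, and 2.35 in bovine. The powders overlapped and the bovine library lay inside the goat range. On the log2 scale the ratio was 1.12 ± 0.16 in whole and 1.15 ± 0.12 in skimmed powder (SD, n = 3 each), a difference of 0.026 (exact two-sided permutation p = 0.8, adjusted over 3 ratios 0.8; 3 libraries against 3 allow no p below 0.1). Over the goat libraries this log2 ratio had an SD of 0.13, and of 2016 pairs among the 64 abundant miRNAs 57, or 2.83%, had a smaller one, with a median of 0.34. Both rows were also even against the other abundant rows, with a mean SD of 0.27 for each (miR-186 2nd and miR-191 6th smallest of 64, median 0.35). Rows with a small CV tend to have small SDs of this kind. These places come from the same libraries as the CV places above and are not separate from them.

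The ratio between the cluster partners was lower in the bovine library than in each goat library. Reads of miR-191 exceeded those of miR-425-5p by 40.9, 39.2 and 40.7-fold in whole A, B and C and by 41.2, 51.3 and 38.9-fold in skimmed A, B and C, against 14.6-fold in bovine. Of the goat libraries 5 lay between 38.9 and 41.2, skimmed B lay above them, and the bovine library lay below all of them. The mean goat ratio was 42.0 ± 4.63 (SD, n = 6), 2.88 times the bovine one. It rests on the same values as the bovine over goat folds of both rows, given below. Of 126 miRNAs with at least 100 CPM in goat, the bovine library lay above the goat range for 24.6% and below it for 55.6%. How many other pairs of rows had a bovine ratio outside the goat range was not counted, so this ratio is not shown to be unusual. Between the goat powders the log2 ratios differed by 0.11 (exact two-sided permutation p = 0.6, adjusted over 3 ratios 0.8).

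For miR-186 over miR-425-5p the ratio was 18.7, 16.2 and 20.9 in whole A, B and C, 17.0, 24.9 and 17.8 in skimmed A, B and C, and 6.20 in bovine. Again skimmed B was the highest goat library and bovine lay below all goat libraries. The mean goat ratio was 19.2 ± 3.23 (SD, n = 6), and the goat powders differed by 0.084 on the log2 scale (exact two-sided permutation p = 0.8, adjusted over 3 ratios 0.8).

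**Figure D4:**
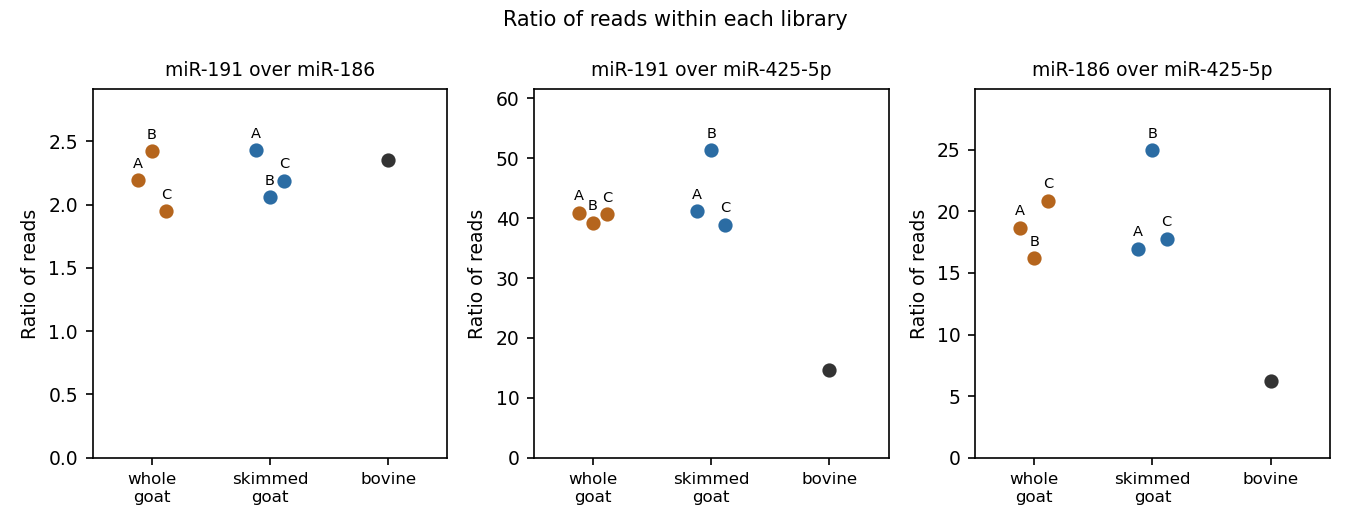
Ratio of reads between members within each library (vertical axes from 0), by group; points are libraries and letters name goat libraries. The bovine point falls inside the goat range for miR-191 over miR-186 (2.35) and below it for miR-191 over miR-425-5p (14.6 against at least 38.9) and for miR-186 over miR-425-5p (6.20 against at least 16.2).

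With 1 bovine library, effects of species, of product and of the library itself cannot be told apart, and no test was made. In CPM it lay above all 6 goat libraries for 3 of 3 members, as for 31 of the 126 miRNAs with at least 100 CPM in goat (24.6%), while 70 (55.6%) lay below the goat range. Its miR-191 was 17080 CPM (95% Poisson interval 16973 to 17188), 1.22 times the goat mean of 13958 ± 1095 CPM (SD, n = 6). Its miR-186 was 7254 CPM (interval 7184 to 7325), 1.14 times the goat mean of 6343 ± 438 CPM (SD, n = 6). The 7032 CPM of whole A was the goat library nearest to it.

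The bovine value of miR-425-5p was 1169 CPM (interval 1141 to 1198), 3.48 times the goat mean of 336 ± 49.2 CPM (SD, n = 6). In CPM it was the 1 member at least 2-fold above the goat mean, a mark passed by 14 of the 126 miRNAs (11.1%), and 6 of the 126 had a higher bovine over goat fold. Of the 126, 12 miRNAs lay nearer to their goat mean in log2 CPM than miR-186 did, and 18 nearer than miR-191. These places by nearness were taken in CPM only. The 6 leukocyte rows, as given above, held a far smaller share of bovine than of goat reads, but they differed widely in size. In bovine miR-155 stood at 7.75 CPM and miR-223 at 11.5 CPM, against at least 1157 and 1154 CPM in goat. Less far apart was miR-142-5p, at 85.7 CPM against 115 to 319 CPM, and miR-146a stood at 0.881 against 30.2 to 83.1 CPM. Both miR-150 and miR-142-3p were at 0 in bovine and in at least 1 goat library. The part of the leukocyte rows in the bovine values was not tested.

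The size of these folds depended on the scaling. With TMM over all 7 libraries the bovine over goat fold was 1.66 for miR-191, 1.55 for miR-186 and 4.72 for miR-425-5p, and with DESeq2 size factors 2.60, 2.44 and 7.40. The share of all miRNAs at least 2-fold above the goat mean was counted in CPM only, so it cannot be set beside these folds. A scaling moves all rows of a library alike, so it leaves the order of the folds nearly fixed. The order by nearness to the goat mean can change with it. How goat reads that differ from a bovine sequence were counted under the bovine names is stated in no source used here.

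Among the 23 other reference miRNAs with at least 100 CPM in goat, the bovine library lay inside the goat range for 7, above it for 4 and below it for 12. The miR-16 rows, whose CV over goat libraries lay near those of miR-191 and miR-186, stood far lower in bovine, at 0.0295 times the goat mean for miR-16b and 0.0473 times for miR-16a. Likewise miR-23a stood at 0.513 times its goat mean. In the other direction miR-320a stood at 4.25 times its goat mean, above the fold of miR-425-5p, while miR-484 and miR-25 stood at 0.626 and 0.590 times.

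**Figure D5:**
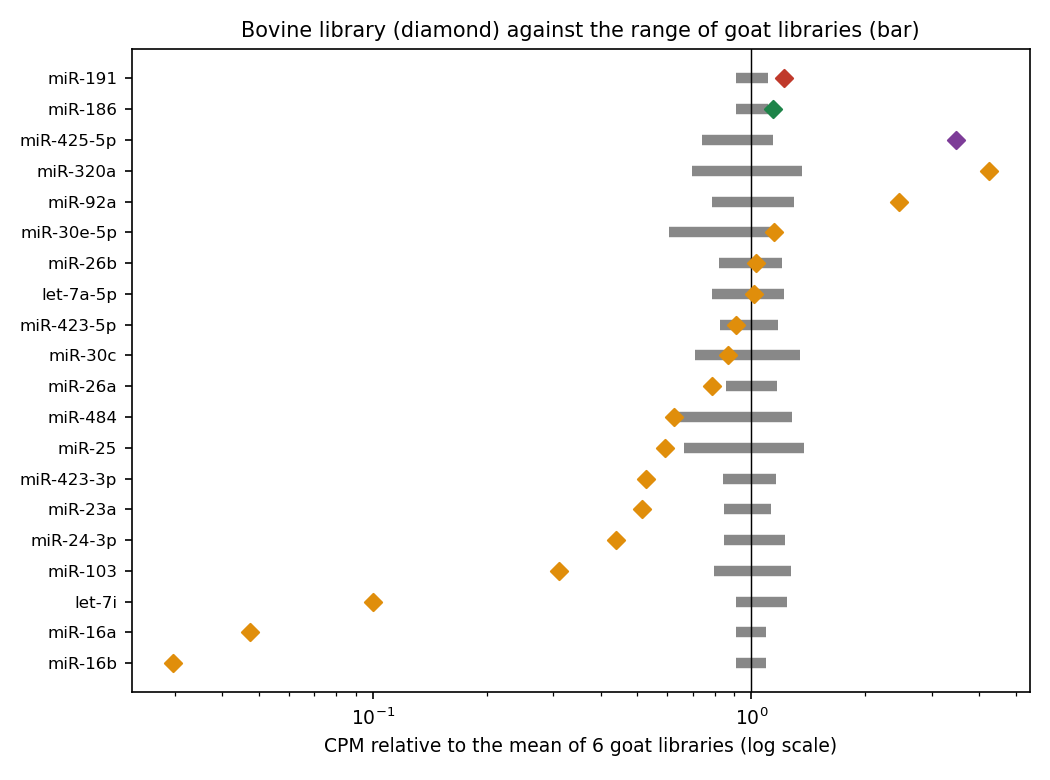
CPM of the bovine library (diamonds) relative to the mean of the 6 goat libraries (horizontal axis, log scale), with the goat range as grey bars, for the 3 members and the 17 other reference miRNAs averaging 1000 CPM or more. Diamonds of miR-191 (1.22) and miR-186 (1.14) lie just beyond their bars, that of miR-425-5p lies at 3.48, and those of the miR-16 rows lie below 0.05.

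The miRNAs most like each member were found by the SD, over the 7 libraries, of the log2 ratio to it, among rows with at least 1000 CPM in goat. Nearest to miR-191 were miR-652 (SD 0.086), miR-186 (0.12) and miR-30d (0.14), against a median of 0.49 over 63 rows. Nearest to miR-186 were miR-26b (SD 0.10), miR-200b (0.11), a miRNA of epithelia, and miR-10174-3p (0.11). Nearest to miR-425-5p were miR-92a (SD 0.29), miR-30f (0.32) and miR-320a (0.38), all of them, like it, at least 2-fold higher in bovine than in the goat mean. These rows depended on the bovine library: over the 6 goat libraries alone 2 of 3 were shared for miR-191, 1 of 3 for miR-186 and 0 of 3 for miR-425-5p. The nearest were then miR-652, miR-146b and miR-186 for miR-191, the rows miR-26b, miR-26c and miR-26a for miR-186, and miR-191, miR-335 and miR-99a-5p for miR-425-5p. The rows miR-26a and miR-26c had nearly equal CV over the goat libraries (11.9% and 11.8%) and bovine over goat folds (0.787 and 0.788). Whether reads were divided between them was not tested, so they may not count as separate rows. These are descriptions over libraries that share an assay and a reference, and the depth of a library enters all its rows.

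The row miR-191b served as a check for split reads. It had 299, 515 and 788 estimated reads in whole A, B and C, 2, 810 and 850 in skimmed A, B and C, and 1 in bovine. Skimmed A and bovine were thus nearly without reads of it, although both held miR-191 at levels like or above the other libraries. Its level of at most 107 CPM was small beside that of miR-191, and adding its reads to miR-191 gave a log2 fold change of -0.012 (edgeR adjusted p = 0.97). Estimated reads of miR-425-5p were whole numbers in all 7 libraries, whereas those of miR-191 were fractions in each and those of miR-186 in all but whole A.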

How the data were processed

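Small RNA of milk powder vesicles was sequenced as single-end reads in 7 libraries, per the labels' protocols. The deposited tables hold estimated counts per mature miRNA, many of them fractions (36.9% to 46.7% of values above 0 were whole within 1e-06); per the file headers they are counts, and library totals differed, so they were taken as not normalized. No source used here names the aligner, counter, miRNA reference or build. CPM were computed over all 364 rows. For tests the estimated counts were rounded and fitted over the 6 goat libraries with edgeR 4.0.16 under R 4.3.3 (default filter on low counts, TMM factors 0.928 to 1.067, quasi-likelihood test, adjusted p of 0.05 over all tested miRNAs). SE is the log2 fold change divided by the square root of F. DESeq2 1.42.0 and limma 3.58.1 were alternatives, with other scalings and filters, a replicate block and each library left out. The fit was tested on simulated data first. No label gives a batch. Sequences and seeds were not used here.

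The members and lists were chosen with earlier results of these data known. Named were the members, their neighbours by level, the 3 rows most like each (log2 of CPM + 1), and of the reference list those called and the 3 with smallest and largest CV at 1000 CPM or more; other names are list members or leads of a count. The ratios to miR-425-5p, the added miR-191b reads, the rows within 2-fold of miR-425-5p and the pair count were chosen after the data were seen.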

Additional observations from a re-analysis of the deposited data

How the results depend on the processing

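No member was called in any alternative, with edgeR, DESeq2 or limma-voom adjusted p from 0.62 to 1.00, but the signs of values this near 0 were not stable. Over all fits the log2 fold change of miR-191 ran from -0.16 (upper-quartile scaling) to 0.032 (without skimmed B). It was 0.012 with let-7a-5p left out and -0.11 with library totals. With 1 goat library left out it ran from -0.10 to 0.032 and turned positive without whole A or skimmed B. That of miR-425-5p ran from -0.25 (upper-quartile scaling) to 0.039 over all fits. With 1 goat library left out it ran from -0.23 to 0.039 and turned positive without skimmed B. That of miR-186 stayed below 0 (-0.19 to -0.0071 over all fits). With 1 goat library left out the powders' difference in log2 ratio ran from -0.054 to 0.10 for miR-191 over miR-186 (negative without whole C or skimmed A), from -0.0096 to 0.19 for miR-191 over miR-425-5p (negative without skimmed B) and from -0.090 to 0.19 for miR-186 over miR-425-5p (negative without whole B or skimmed B). The CV of miR-425-5p ran from 7.56% to 16.4%, lowest without skimmed B. With TMM over 7 libraries the CV was 6.58% for miR-191 and 6.63% for miR-186, the reverse of their order in CPM. With let-7a-5p left out of the library totals the CV was 8.21% for miR-191 and 5.64% for miR-186. Places by CV were taken in CPM only. Bovine over goat folds were 1.66, 1.55 and 4.72 for miR-191, miR-186 and miR-425-5p with TMM over 7 libraries and 2.60, 2.44 and 7.40 with DESeq2 size factors; the cause was not tested.

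Over all miRNAs, edgeR's 1 call was 0 with upper-quartile scaling, with let-7a-5p left out, with library totals and with DESeq2 size factors, 2 without a filter, 4 over miRNAs of at least 100 CPM, 12 with DESeq2's Wald test, and 0 to 1 with 1 library left out; the cause was not tested. With the letters as a replicate block it was 0, and the log2 fold changes were -0.014, -0.040 and -0.12 for miR-191, miR-186 and miR-425-5p. Deviations of same-letter libraries correlated at -0.089, 0.071 and 0.37 for A, B and C over 126 miRNAs, and those of other letter pairs at -0.26 to 0.16, so the letters were not shown to pair the libraries, although the value for C was the highest of the 9. Each powder has 3 libraries and bovine 1, and the spread between goat libraries exceeded the Poisson counting error of each member.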
